A study of Homo sapiens with 12 samples.

Results

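The cytosolic ribosomal protein genes are the genes for the proteins of the 80S ribosome. They were taken as the protein-coding rows of the deposited expression table whose symbol is RPL or RPS followed by a number, with an optional A, X or L ending, together with RPLP0, RPLP1, RPLP2 and RPSA. Pseudogenes were left out. The rule goes by symbol, so it also takes in RPL7L1, whose yeast relative Rlp7 acts in assembly of the large subunit. The rule found 82 of 12725 genes, 50 of the large subunit and 32 of the small subunit, spread over 21 chromosomes. RPL3L and RPL10L were not analysed here, and FAU, RPL36AL and RACK1, which also encode proteins of or on the ribosome, have names outside the rule.

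The libraries came from Ramos, a B cell line from a Burkitt lymphoma, transduced with pTRIPZ, a doxycycline-inducible vector that expressed miR-28 or, in the controls, a scrambled sequence. Both groups had puromycin selection at 0.4 µg/ml, doxycycline at 0.5 µg/ml for 2 days and a sort for RFP+ cells, and the RNA was polyA RNA. There were 6 scramble and 6 miR-28 libraries, which the labels tie into 6 pairs; pairs 1 to 3 were made in library batch 1 and pairs 4 to 6 in batch 2. The labels add XENO 1 to pairs 1, 4 and 5 and XENO 2 to pairs 2 and 6, add no such mark to pair 3, and do not say what it means. The sample descriptions name the scramble libraries of pairs 4, 5 and 6 S1 bis, S1 tris and S2 bis, and the miR-28 ones likewise. Pairs 4 and 5 may thus repeat sample 1 and pair 6 sample 2, and the fits took the 6 pairs as separate. The labels do not say whether pairs are separate cultures, so the p-values, standard errors and intervals measure the spread between these samples only.

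A ribosome holds one copy of most of its proteins, the acidic stalk proteins excepted, so cells need them in matched amounts. Their mRNAs are abundant and short, and most begin with a C followed by an unbroken run of pyrimidines, the 5′ terminal oligopyrimidine (TOP) tract, through which mTOR signalling and LARP1 control their translation. MYC, which is translocated in Burkitt lymphoma, is known to drive ribosome production. The values below are mRNA levels; translation was not measured.

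The start of the transcript holds a feature that most members share, and it is shown for 10 members on which the results below turn. Each line gives 15 bases before and 15 bases from the RefSeq start (GRCh38.p14), on the gene's strand. Capitals mark the pyrimidine run from the start where it began with C and held at least 4 more C or T. RPL26L1 has 2 starts, neither with such a run, and 1 of them is shown. RPL14, RPS3A and RPL12 had the largest differences between the groups. RPL39 and RPS23 were among the members whose levels were most even between pairs. RPL26 and RPS27 are shown with their copies RPL26L1 and RPS27L, and RPL7L1 is a further copy.
RPL14, chr3:40457324-40457353, plus strand: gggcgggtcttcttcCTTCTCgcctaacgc
RPS3A, chr4:151099613-151099642, plus strand: cgactcccacttccgCCCTTTTggctctct
RPL12, chr9:127451392-127451421, minus strand: ccgcgcgatttccggCCTCTCggctttcgg
RPL39, chrX:119791616-119791645, minus strand: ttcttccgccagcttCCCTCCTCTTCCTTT
RPS23, chr5:82278340-82278369, minus strand: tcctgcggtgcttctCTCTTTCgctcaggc
RPL26, chr17:8383179-8383208, minus strand: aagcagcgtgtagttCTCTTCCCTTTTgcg
RPL26L1, chr5:172958714-172958743, plus strand: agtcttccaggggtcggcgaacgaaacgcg
RPS27, chr1:153990747-153990776, plus strand: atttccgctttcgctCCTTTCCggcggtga
RPS27L, chr15:63157463-63157492, minus strand: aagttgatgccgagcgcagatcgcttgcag
RPL7L1, chr6:42879601-42879630, plus strand: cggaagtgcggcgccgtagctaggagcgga

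RPL14, RPS3A, RPL12, RPL39, RPS23, RPL26 and RPS27 all began with a TOP tract at the RefSeq start, and RPL26L1, RPS27L and RPL7L1 did not; among the copies, RPL22L1 also began with one. Of the 66 members with a promoter entry, 47 (71.2%) began this way, against 5.14% of all 27305 genes with an entry and 7.69% of the 9412 that were also in the expression table. Members without the tract were not only copies, and included RPL3, RPL4, RPS26 and RPS28. A gene with several starts was counted for the tract or a motif if any of its starts had it. The ETS core CGGAAG, searched on both strands from 250 bases before to 50 bases from the start, was found in 63.6% of members, 22.6% of all genes and 41.1% of genes in the table. The YY1 motif GCCATNTT was found in 16.7% of members, 7.97% of all genes and 13.6% of genes in the table. TATAAA was found in 9.09% of members, below the 14% of all genes and above the 8.02% of genes in the table. The E-box CACGTG, the sequence MYC binds with MAX, was found in 7.58% of members, 8.77% of all genes and 12.9% of genes in the table.

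The mature miR-28-3p is given because its seed, bases 2 to 8 in capitals, sets the site searched for in the 3′ UTRs (RefSeq, GRCh38.p14).
hsa-miR-28-3p, chr3:188688834-188688855, plus strand: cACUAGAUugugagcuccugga

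The matching site ATCTAGT was found in the 3′ UTR of 2 of 82 members (2.44%), RPL13 and RPL14, against 7% of 10815 genes. The members' 3′ UTRs had a median of 132 bases against 1090 over those genes, from 1 GENCODE transcript per gene. RPL13 has a 3′ UTR of 3786 bases and RPL14 one of 6355 bases in the transcript taken. Both are far longer than the median of the family, so both sites may depend on that choice of transcript. Other transcripts were not searched. hsa-miR-28-5p was not analysed here.

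Levels are given as CPM, read counts scaled by library size and TMM factor. As a check of the labels, the MIR28 row was at 0 in all 6 scramble libraries and between 0.983 and 3.16 CPM in the 6 miR-28 libraries. The libraries held 15404730 to 37876636 reads, and no member had fewer than 350 reads in any library. All 10 of the B cell markers examined were measured, with IGHM between 5571 and 7374 CPM. None of 5 T cell, 5 myeloid and 4 epithelial markers had a row in the table, and of 4 stromal markers PECAM1 had one, at 0.713 to 2.39 CPM. The share of reads from mitochondrial genes was 7.45% in the scramble library of pair 3 and 3.43% in its miR-28 partner, against 1.19% to 2.88% in the other 10 libraries.

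Ribosomal protein mRNAs took 6.63% to 8.81% of all reads. In the scramble libraries of pairs 1 to 6 the share was 7.60%, 8.52%, 7.30%, 6.65%, 8.57% and 7.65%. In the miR-28 libraries of the same pairs it was 8.34%, 8.01%, 8.50%, 6.63%, 8.81% and 8.62%. The groups overlapped across their whole range, the miR-28 library was the higher one in pairs 1, 3, 5 and 6, and both libraries of pair 4 were the lowest of their group. The mean summed CPM of the 82 genes was 1.04 times as high with miR-28 as with scramble. These are shares of the polyA RNA sequenced, so in these bulk samples fewer cells with a high level and less RNA per cell cannot be told apart.

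**Figure D1:**
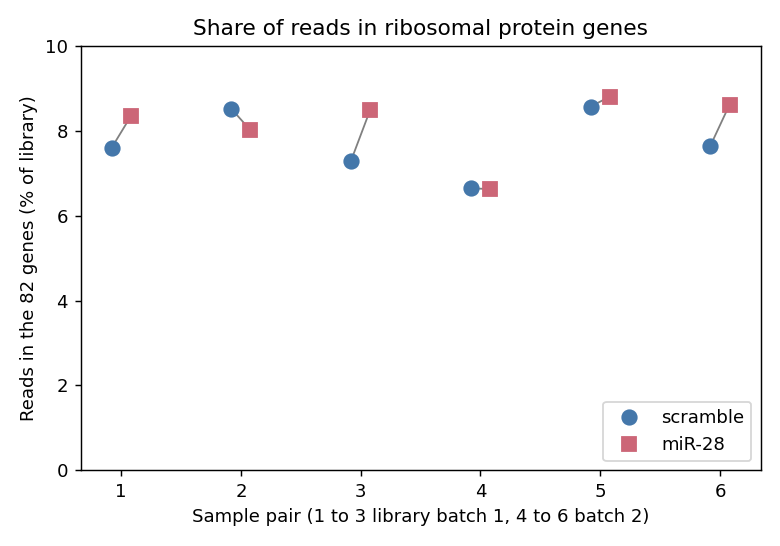
Share of each library's reads (%) in the 82 ribosomal protein genes, by sample pair, with lines joining the scramble (circle) and miR-28 (square) library of a pair. The shares run from 6.63% to 8.81%, and both libraries of pair 4 are the lowest of their group.

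Levels differed widely between members. Per kilobase of coding sequence, the median of the large subunit was 1670 CPM and that of the small subunit 2026 CPM. RPL41, which encodes the smallest protein of the ribosome, stood highest at 20393 CPM per coding kilobase; its coding sequence is 75 bases long, and untranslated bases were not counted in this scale. RPS18, a protein of the head of the small subunit, followed at 4470 and the stalk gene RPLP1 at 4208. The lowest were the copies RPL26L1 at 63.7, RPS27L at 137 and RPL22L1 at 161 CPM per coding kilobase. Reads shared with near-identical sequences make each member's level uncertain, since 28 ribosomal protein pseudogenes are also in the table; their summed CPM was 0.980% to 1.18% of that of the members.

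The question of the series is what miR-28 does to the transcriptome of these cells. No ribosomal protein gene passed the test for a miR-28 effect. In limma with the library batch as a covariate, 0 of 82 members had an adjusted p under 0.05, where 0.0157% of all 12725 genes did, and 0 of 82 had an unadjusted p under 0.05, where 0.33% of all genes did. With the pair as a block in limma, 0 of 82 members were called against 0.0236% of all genes, and the smallest adjusted p among members was 0.607. At an unadjusted p under 0.05 in that blocked fit there were 2 members, RPS3A among them, where 7.3% of all genes passed. On the recovered reads, edgeR and DESeq2 also called 0 members. Over all genes edgeR called 0.0% with batch and 0.00786% with the block, and DESeq2 called 0.0157% and 0.165%. At an unadjusted p under 0.05 each tool had 0 members without the block, where edgeR passed 0.354% and DESeq2 0.613% of all genes. With the block edgeR had 3 members, against 6.94% of all genes, and DESeq2 had 4, against 8.26%.

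The fits also bound the size of the differences. The 95% interval of the log2 difference lay within 1.5-fold in either direction for 81 of 82 members with the block, and for 68 of 82 with batch alone. The exception with the block was RPL14, with an interval of -0.10 to 0.70. The median standard error (SE) of a member was 0.0720 with the block and 0.144 with batch alone. SEs given below for single genes are from the batch fit unless stated, and that fit does not use the pairing.

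By sign, 56 of 82 members were higher and 26 lower in miR-28, where 47.1% of all genes were higher. The median log2 difference of the members was 0.050 and that of all genes was -0.010. Large-subunit genes had 34 of 50 above 0 and small-subunit genes 22 of 32. Within batch 1 alone 64 members were above 0, with a median of 0.057, and within batch 2 alone 53 were, with a median of 0.028. When whole pairs were left out in turn, 48 to 62 members were above 0, with medians of 0.025 to 0.071. Leaving out 1 library of a pair in the fit without the block also shifts the difference by that pair's level, and the count was then 32 without the miR-28 library of pair 5, with a median of -0.018, and 41 without the scramble library of pair 4, with a median of -0.002.

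RPL14, a protein of the large subunit (chr3:40457292-40468587 in GRCh38, plus strand), had the largest difference. Its scramble libraries of pairs 1 to 6 read 925.2, 1038, 387.2, 358.8, 1289 and 370.4 CPM. Its miR-28 libraries read 974.8, 977.5, 725.9, 300.8, 1297 and 825.6 CPM. The groups overlapped, the miR-28 library was clearly the higher one in pairs 3 and 6 alone, and the scramble libraries of pairs 3 and 6 were nearly as low as both libraries of pair 4. The log2 difference was 0.30 with an SE of 0.416 in the batch fit.

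RPS3A, a small-subunit protein near the mRNA exit (chr4:151099573-151104652, plus strand), had the second-largest difference. Its scramble libraries read 1594, 1548, 1174, 972.8, 2087 and 1255 CPM. Its miR-28 libraries read 1694, 1700, 1819, 1084, 2018 and 1871 CPM. The groups overlapped, with the miR-28 library higher in 5 of 6 pairs and pair 5 the exception. The log2 difference was 0.26, with an SE of 0.216 in the batch fit. In the blocked fit its limma adjusted p was 0.607.

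RPL12, a protein at the base of the stalk, read 743.5, 992, 537.6, 374.2, 977 and 628.8 CPM in scramble and 894.8, 842.2, 823, 395.1, 986.9 and 947.1 CPM in miR-28. The miR-28 library was higher in 5 of 6 pairs, the groups overlapped, and pair 4 was the lowest in both. RPL3, which lies near the peptidyl transferase centre, had a log2 difference of 0.21 (SE 0.256 with batch and 0.103 with the block). It was higher in miR-28 in 5 of 6 pairs. RPSA, also known as the laminin receptor, had means of 1294 ± 369 CPM in scramble and 1461 ± 327 CPM in miR-28 (SD, n = 6). RPL41 had means of 1435 ± 411 and 1624 ± 372 CPM (SD, n = 6). Each of these means differed by less than either group's SD, which includes the differences between pairs.

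At the other end, RPL7L1 (chr6) was the member with the most negative difference. It read 323.4, 275.3, 346, 417.6, 283.1 and 323.4 CPM in scramble and 325, 326.1, 237, 344.9, 264.5 and 229.8 CPM in miR-28. The groups overlapped, and the miR-28 library was the lower one in pairs 3 to 6. The log2 difference was -0.19 (SE 0.149). RPL28, RPS19, RPS28 and RPS23 followed, with differences between -0.10 and -0.08; RPS19 is the gene most often mutated in Diamond-Blackfan anaemia, an inherited failure of red cell production.

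**Figure D2:**
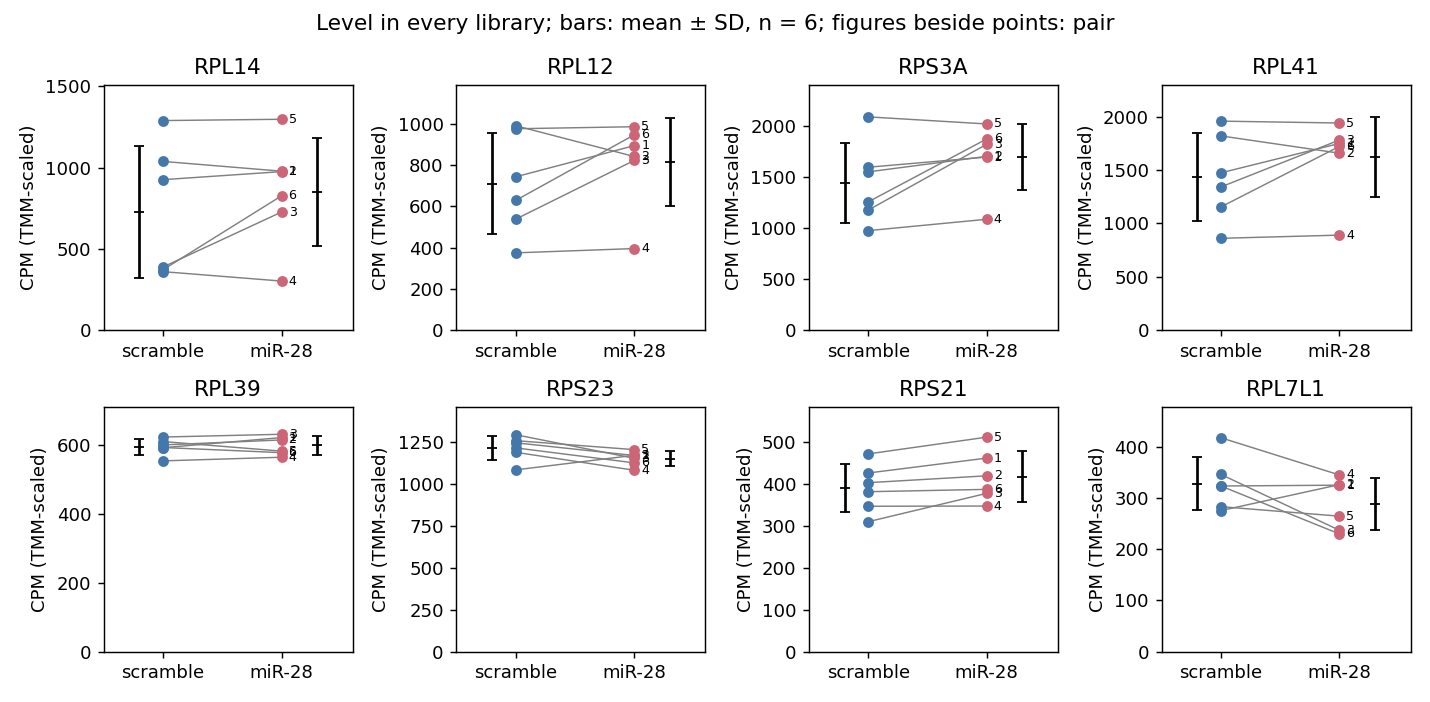
CPM of 8 members in every library, with lines joining the libraries of a pair, the pair number beside the miR-28 point, and bars for the mean ± SD (n = 6) of each group. RPL14, RPL12, RPS3A and RPL41 have their largest steps in pairs 3 and 6, RPL39 and RPS23 are nearly flat, and the groups overlap in all 8.

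A few small differences had the same sign in every pair. RPL27A, RPS14 and RPS21 were higher in miR-28 in all 6 pairs (3 of 82 members, 3.66%, against 2.07% of all genes), and 0 members were lower in all 6 (against 2.19%). RPS21, a small-subunit protein, read 425.8, 402.7, 309.7, 346.5, 471.3 and 381.2 CPM in scramble and 461.4, 419.1, 377.3, 347, 511.2 and 386.8 CPM in miR-28. The difference in pair 4 was close to 0, and the groups overlapped. RPS14, which lies in the region lost in the 5q- syndrome, had means of 673.3 ± 56.3 and 708 ± 63.2 CPM, and RPL27A, a large-subunit protein, had 1355 ± 161 and 1446 ± 142 CPM (SD, n = 6).

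The 3 stalk proteins recruit elongation factors to the ribosome. RPLP0, the base of the stalk, averaged 2912 ± 396 CPM in scramble and 3120 ± 386 in miR-28 (SD, n = 6), and had the highest CPM of all members. RPLP1 had a log2 difference of 0.06 (SE 0.143) and RPLP2 of -0.01 (SE 0.162). RPL5 and RPL11 bind the 5S rRNA and, outside the ribosome, MDM2, which restrains p53. RPL5 averaged 1403 ± 249 and 1475 ± 228 CPM and RPL11 1235 ± 120 and 1244 ± 115 CPM (SD, n = 6). RPS6, the substrate of S6 kinase, had a log2 difference of 0.10 (SE 0.151), and RPS27A, made as a fusion with ubiquitin, one of -0.06 (SE 0.116).

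The direction of the family differed from pair to pair. In pair 1, 79 of 82 members were higher in miR-28 (50.1% of all genes were), with a median log2 difference of 0.14. In pair 2, 19 of 82 were higher (46.3% of all genes), with a median of -0.077. The counts were 55 in pair 3 (49.5%), 32 in pair 4 (47.8%), 59 in pair 5 (52.2%) and 51 in pair 6 (49.0%), with medians of 0.082, -0.043, 0.043 and 0.056. Pairs 1 and 2, both of batch 1, had medians of opposite sign; each is a single pair of libraries, and the difference between pairs has no test.

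Pairs 3 and 6 had a wider spread than the others, which was not particular to the members. In each of these pairs 10 of 82 members had a log2 difference above 0.4. Of all genes, 21.9% were above 0.4 in pair 3 and 13.3% in pair 6, against 1.39% to 6.20% in the other pairs. The members ran from -0.54 to 0.90 in pair 3 and from -0.49 to 1.15 in pair 6, and in pair 5 from -0.12 to 0.26. There were 9 members above 0.4 in both pairs 3 and 6, a set chosen after their values were seen, among them RPL12, RPL14, RPL3, RPL41, RPS2, RPS3, RPS3A and RPSA. Of all genes, 7.74% were above 0.4 in both. Without pairs 3 and 6, 54 members were above 0, the median was 0.016, and limma with the pair as a block called 0 members (0.0314% of all genes), with 0 at an unadjusted p under 0.05, where 5.42% of all genes passed. The scramble library of pair 3 had the high mitochondrial share given above and that of pair 6 the fewest reads; the part of either in these values was not tested.

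**Figure D3:**
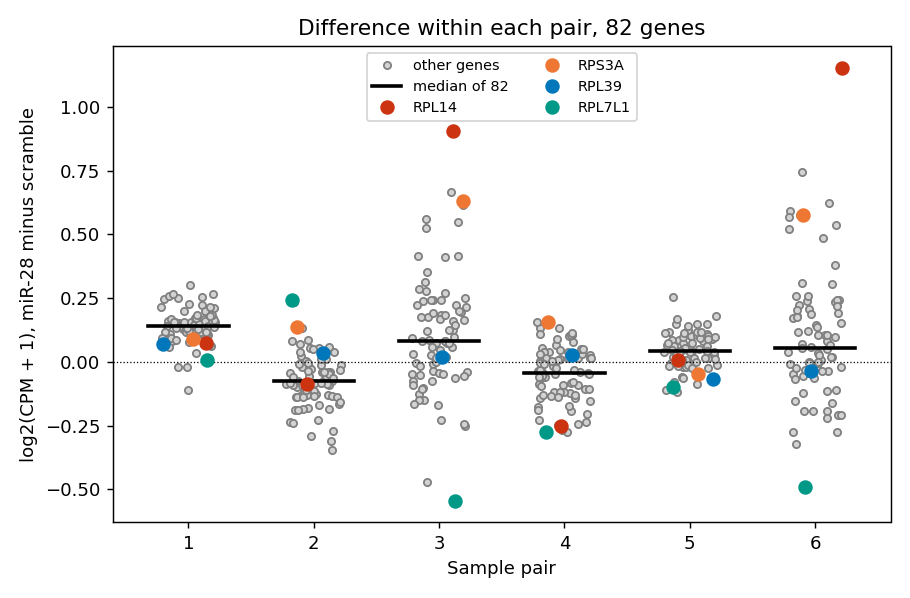
Log2 difference, miR-28 minus scramble on log2(CPM + 1), of each of the 82 genes within each pair; black bars are the medians. The medians are 0.14 in pair 1 and -0.077 in pair 2, and RPL14 and RPS3A stand high in pairs 3 and 6.

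Differences between pairs were larger than those within them. The median SD of a member's 6 pair means was 0.207 on the log2 scale, and the median size of its difference within pairs was 0.113. For the 903 other genes with a mean of at least 200 CPM the values were 0.355 and 0.175. The highest library was over 2 times the lowest for 18 of 82 members, against 62.5% of all genes, which include genes of low counts.

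Pair 4 was the low and pair 5 the high end for most members. The mean of pair 4 was the lowest of the 6 for 62 of 82 members (19.7% of all genes), and that of pair 5 the highest for 63 (27.1% of all genes). Both held for 52 members. The median deviation from the mean of the pairs was -0.28 in pair 4 and 0.24 in pair 5, against 0.083, 0.11, -0.053 and -0.072 in pairs 1, 2, 3 and 6. Pairs 4 and 5 share the labels XENO 1 and batch 2, and are named S1 bis and S1 tris.

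Members also differed in how even they were. RPL39, which lines the exit tunnel of the large subunit, read 591.7, 599.7, 622.6, 553.5, 609.5 and 592.2 CPM in scramble and 621, 614.2, 630.7, 564, 581.8 and 577.3 CPM in miR-28. All 12 values lay close together, and its highest library was 1.14 times its lowest. RPS23, a protein of the decoding centre, had the smallest SD of pair means, 0.055, and averaged 1216 ± 73.4 and 1153 ± 42.7 CPM (SD, n = 6).

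The least even was RPL14, with an SD of pair means of 0.74. RPL23 and RPS26, named after their values were seen, came next at 0.69 and 0.64. RPS26, a small-subunit protein near the mRNA exit and a Diamond-Blackfan anaemia gene, read 176, 156.8, 75.89, 95.83, 190.4 and 89.52 CPM in scramble and 180.1, 184.7, 64.71, 87.19, 192.8 and 73.88 CPM in miR-28. Pairs 1, 2 and 5 were high and pairs 3, 4 and 6 low, with no overlap between these 2 sets of pairs, while the groups overlapped. RPL23 had the same order, with 727.1 to 914.6 CPM in the libraries of pairs 1, 2 and 5 and 269.5 to 433.6 CPM in the others. This split was not particular to the members. NPM1 read 2341 to 2855 CPM in the libraries of pairs 1, 2 and 5 and 755.7 to 1173 CPM in the others. PABPC1, LARP1 and EIF5A were also split without overlap, and EEF1A1 was not. The share of all genes with this split was not counted.

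**Figure D4:**
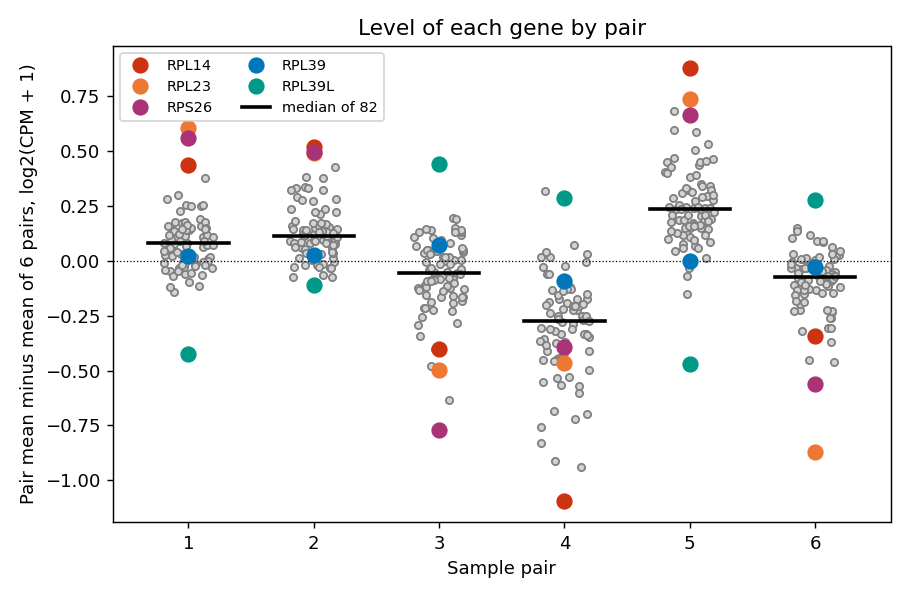
Mean of each pair minus the mean of the 6 pairs, on log2(CPM + 1), for each of the 82 genes; black bars are the medians. Most members are lowest in pair 4 (median -0.28) and highest in pair 5 (0.24), RPL39 stays near 0, and the copy RPL39L is high where RPL14, RPL23 and RPS26 are low.

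The library batch had no called effect on the members. In limma 0 of 82 were called, where 0.0% of all genes were, and edgeR and DESeq2 called 0; at an unadjusted p under 0.05 all 3 tools had 0 members, against 0.291% of all genes in limma, 0.322% in edgeR and 0.589% in DESeq2. Without pair 5, limma called 0 members and had 19 at an unadjusted p under 0.05, where 13.1% of all genes passed. The batch fits counted both libraries of a pair as separate samples, although batch differs only between pairs. Their p-values for batch therefore tend to be too small. In batch 2, 74 of 82 members were lower than in batch 1, with a median log2 difference of -0.081 against -0.012 for all genes. That count rested on pair 4: 52 of 82 were higher in batch 2 without pair 4 and 28 without its miR-28 library, against 8 with all libraries. It was 16 without the scramble library of pair 4, 15 without pair 2, 13 without the scramble library of pair 2 and without pairs 3 or 6, 5 without either library of pair 5 and 3 without pair 5. No difference in the miR-28 effect between batches was called: for the interaction limma, edgeR and DESeq2 each called 0 members, where limma and edgeR called 0.0% of all genes and DESeq2 called 2 of 12725. At an unadjusted p under 0.05 each had 0 members, against 0.0707% of all genes in limma, 0.0629% in edgeR and 0.102% in DESeq2.

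The copies were below their partners in every library, RPL7L1 the least so. Per coding base, RPL22L1 was at 7.52% to 12.3% of RPL22, RPL26L1 at 2.38% to 5.82% of RPL26, RPL39L at 4.82% to 10.2% of RPL39, and RPS27L, known as a p53 target, at 2.44% to 5.18% of RPS27. RPL7L1, whose yeast relative Rlp7 acts in assembly of the large subunit, was at 17.7% to 52.8% of RPL7. Its share of RPL7 was highest in pair 4, at 52.8% in scramble and 44.6% in miR-28, and above 40% in the scramble libraries of pairs 3 and 6. All 5 copies had log2 differences below 0 for miR-28, from -0.19 for RPL7L1 to -0.002 for RPL26L1, and none was called.

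**Figure D5:**
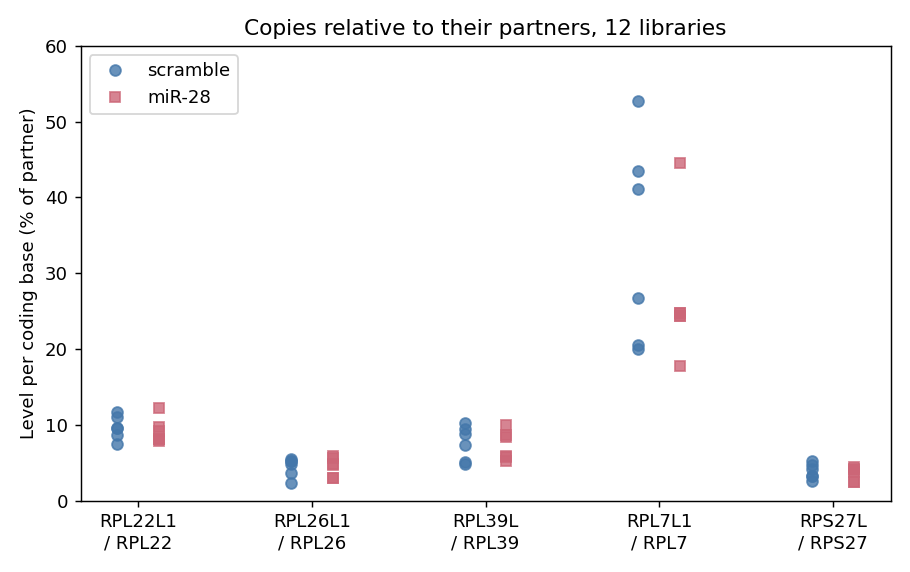
Level of each copy per coding base as a percentage of its partner, in the 6 scramble (circles) and 6 miR-28 (squares) libraries. RPL7L1 reaches 17.7% to 52.8% of RPL7, the other 4 copies stay at or below 12.3%, and the groups overlap for all 5.

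The genes that make ribosomes and work with them were read from lists. No gene of any list was called in limma with batch or with the pair as a block, where 0.0157% and 0.0236% of all genes were. The counts by sign below stand beside 47.1% of all genes above 0 for miR-28. Of 40 ribosome biogenesis genes, 30 were below 0 for miR-28, with a median of -0.10; the median was -0.35 in pair 3 and -0.41 in pair 4, and 0.15 in pair 2. The helicase DDX21 had a log2 difference of -0.22 (SE 0.189) and RRP12 one of -0.29 (SE 0.262). Of 27 translation initiation factors, 23 were below 0 (median -0.068), among them EIF4A2 at -0.24 (SE 0.179). The medians of the 27 in pairs 1 to 6 were -0.013, 0.10, -0.15, -0.26, 0.002 and 0.018. EIF2S3, EIF3E, EIF3F, EIF3H, EIF3K, EIF3L and EIF4B were not among the 27, being counted with the TOP mRNAs below.

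Of 16 other known TOP mRNAs, 13 were above 0 (47.1% of all genes were), with a median of 0.063. Their medians in pairs 1 to 6 were 0.073, -0.061, 0.20, -0.086, -0.033 and 0.40, so that pairs 3 and 6 were the highest and pairs 2, 4 and 5 were below 0. Of 7 elongation factors, 5 were above 0 (median 0.066). EIF3E, a subunit of the initiation factor eIF3, had a difference of 0.25 (SE 0.336), with 0.15, -0.14, 0.80, -0.16, -0.05 and 0.91 in pairs 1 to 6. EEF1A1, the main elongation factor, averaged 9314 ± 2371 CPM in scramble and 10077 ± 2215 in miR-28 (SD, n = 6). Of 14 RNA polymerase I genes 9 were below 0, and of 19 genes that control TOP mRNAs and ribosome production 14 were. MYC was between 389.5 and 718.5 CPM, with a log2 difference of -0.03 (SE 0.170). Of the 4 ribosomal proteins outside the rule, 3 were below 0 and RACK1, a scaffold on the small subunit, was at 0.10 (SE 0.201).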

How the data were processed

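The deposited table holds 12725 genes in 12 libraries (0 columns of other samples). Per the submitters' processing notes, CASAVA 1.8.2, cutadapt, RSEM 1.2.3 and GRCh38 were used. The annotation, the filter and the normalization were not given in the sources used. The deposited values (unit signal) are CPM scaled by TMM, a reading taken from the values: all were whole multiples of 1 read per library (100%, tolerance 0.01), and TMM on the recovered reads returned the scaling. RSEM estimates counts, and how the authors rounded them is not given. Every gene of the deposited table reached at least 1.15 CPM in some library. Ensembl IDs were named from GENCODE 29 (12595 matched).

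Tests were limma 3.58.1 (R 4.3.3, trend) on log2(CPM + 1) of all genes with batch and group, adjusted by Benjamini-Hochberg over all genes with a threshold of 0.05; fold changes are on that scale. Alternatives were the pair as block, edgeR 4.0.16 and DESeq2 1.42.0 on recovered reads, other scalings, a pseudocount of 0.1, a mean of at least 5, each batch, and leaving out libraries or pairs. The limma fits of the miR-28 effect with batch and with the pair as block were tested on simulated data, and the other alternatives were not. That check required only that the median of the fold changes put in was recovered. It used the same dispersion for all genes and pairs, without the wider spread of pairs 3 and 6. The labels name the pairs, and deviations of paired libraries correlated at 0.740 to 0.906. Members and lists were chosen with earlier results of these data known. Named members were copies and partners, the 5 largest and 5 smallest differences, the 3 highest and lowest levels per coding kilobase, those of one sign in all 6 pairs and 11 with known roles; up to 3 genes per list had the smallest p. The values of some single genes are not reported here; they stay in all counts and medians.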

Additional observations from a re-analysis of the deposited data

Results flagged for a closer look

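In 5 members the miR-28 library of pair 4 stood apart from the other 5 miR-28 libraries, by a gap that was large against the range of the group (Dixon's test for 6 samples). RPL12 read 395.1 CPM there, against 823 to 986.9 in the others. RPL41 read 889.6 CPM against 1659 to 1942, and RPS3A read 1084 CPM against 1694 to 2018. RPS18 read 1833 CPM against 2087 to 2239, and RPS27 read 761.4 CPM against 973.5 to 1045. The scramble library of the same pair was the lowest of its group in all 5 genes. Chance marks about 1 in 20 groups, and 66 groups were tested.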

How the results depend on the processing

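No member was called for miR-28, library batch or their interaction under any alternative run, with or without the pair as a block; with the block the count of members called was 0 and the median difference 0.050. The count of members above 0 for miR-28 ran from 48 to 62 when a whole pair was left out and from 32 to 70 when a library was, and was 32 without the miR-28 library of pair 5; the median ran from -0.018 to 0.11. For library batch the count above 0 was 22 with scaling by library total, and ran from 3 to 52 when a library or pair was left out, with a median of -0.22 to 0.032. For the batch counts the cause was not tested. Leaving out pairs 3 and 6, and DESeq2 with the pair as a block, were added after seeing the data. The 32 named members had 1024 differences under 32 alternatives, of which 81 had the other sign, and 15 members kept one sign throughout. Precision is limited by 6 pairs whose levels differ more between pairs than within them, and by reads that near-identical copies and pseudogenes may share; depth does not limit the members, which had at least 350 reads each.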

Other observations

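The 18 Diamond-Blackfan anaemia genes among the members had 10 log2 differences above 0 and 8 below, with a median of 0.018. Of all genes, 47.1% were above 0. Reads of readthrough genes overlap 3 members: RPL17-C18orf32 was at 13.3 to 27.9 CPM, RPS10-NUDT3 at 17.3 to 39.7 CPM and RPL36A-HNRNPH2 at 4.79 to 7.82 CPM. Of 13 genes for import, chaperones and surveillance of ribosomal proteins, 6 were above 0 and 7 below (median -0.024).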
